A study of Oryza sativa Indica Group with 2 samples.

Results

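The genes described here are those of the core and linker histones, the proteins that package nuclear DNA. They are the rows of the deposited gene table whose primary Swiss-Prot description names histone H1, H2A, H2B, H3 or H4 and does not name an enzyme or a chaperone that acts on histones. The rule, which uses no expression value, found 61 of 35677 genes. There were 4 genes for H1, 18 for H2A, 15 for H2B, 13 for H3 and 11 for H4. Messenger RNA was sequenced from rice seedlings (Oryza sativa, Indica group) in the tillering stage, in which side shoots grow out. The wild type (WT) gave 1 library, and GRF7OE-1, a line carrying a transgene for overexpression of the transcription factor gene OsGRF7, gave the other (GRF7OE). GRF7OE-1 is 1 line, and the sources used here do not give the promoter of its transgene, the age of the plants or any pooling of plants. The comparison asks how expression in that line differs from the wild type.

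Core histones H2A, H2B, H3 and H4 form the spool around which DNA winds, and H1 binds the linker DNA between spools. Most core histone is made during S phase, when newly copied DNA has to be packaged, so canonical histone transcripts are abundant in tissues with dividing cells. Replacement variants such as H3.3 and H2A.Z are made through the whole cell cycle and enter chromatin outside replication, and H2AX is the variant that is phosphorylated beside DNA breaks. In plants the transcripts of canonical histones carry a poly(A) tail, unlike most of those in animals.

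About 17021467 reads were assigned to genes in GRF7OE and about 16824988 in WT. OsGRF7 itself (OS12G0484900) stood at 70.7 FPKM in GRF7OE and 5.10 in WT, so the library labelled as overexpressing it was the one with more of its transcript. FPKM is the authors' measure of expression, the reads of a gene scaled to its length and to the size of the library. Folds below are plain FPKM ratios, and the brackets after a fold hold its 95% exact (Clopper-Pearson) interval from the reads of both libraries. Folds of sums carry an approximate 95% interval in which the reads of each gene are weighted by its FPKM per read. With 1 library per group there was no test of the conditions and no replicate check, and the intervals cover counting error only. In seedlings, a change in the number of cells of a type and a change in RNA per cell cannot be told apart. Leaf markers (small subunits of Rubisco and chlorophyll a-b binding proteins) were abundant in both libraries, summing to 46282 FPKM in GRF7OE and 36248 in WT. Of 5 root markers, 2 Casparian strip membrane protein genes were listed at 0 in both libraries, and a further one stood at 0.651 FPKM in GRF7OE and 0.340 in WT. The other root markers were detected, aquaporin NIP2-2 at 59.5 FPKM in GRF7OE and 55.2 in WT, and NIP2-1 at 6.83 and 7.22.

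Most histone genes were higher in GRF7OE. Of the 61, 52 averaged at least 1 FPKM across the pair of libraries and are called expressed here. Of the rest, 8 were listed at 0 in both libraries, and OS11G0155900, an H3 gene, had 3 reads in GRF7OE and 0 in WT and gets no fold. On the scale log2((GRF7OE FPKM + 1) / (WT FPKM + 1)), 45 of the 52 were above 0 and 7 below, while 48.3% of the 23397 genes expressed by that criterion were above 0. The histone median was 0.70 on that scale, and the median of all genes was -0.01. At least 2-fold higher were 14 of the 52 histone genes, or 26.9%, against 3.24% of all genes. None was at least 2-fold lower, against 1.25% of all genes, although OS09G0570850 was past 2-fold lower when the pseudocount was 0.1, on 4 reads against 11. At least 1.5-fold higher were 28 histone genes, 53.8%, against 9.18% of all genes. The counting interval of the fold lay wholly above 1 for 41 of the 52, wholly below 1 for 3 (OS06G0130800, OS02G0435000 and OS03G0144700), and included 1 for 8. Summed over the 61 genes, the level was 8659 FPKM in GRF7OE and 5860 in WT, or 1.48-fold [1.46 to 1.49]. Their reads, not weighted by length, were 90688 against 68914, or 1.32-fold. The FPKM sum made up 1.0% of all FPKM in GRF7OE and 0.724% in WT.

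**Figure D1:**
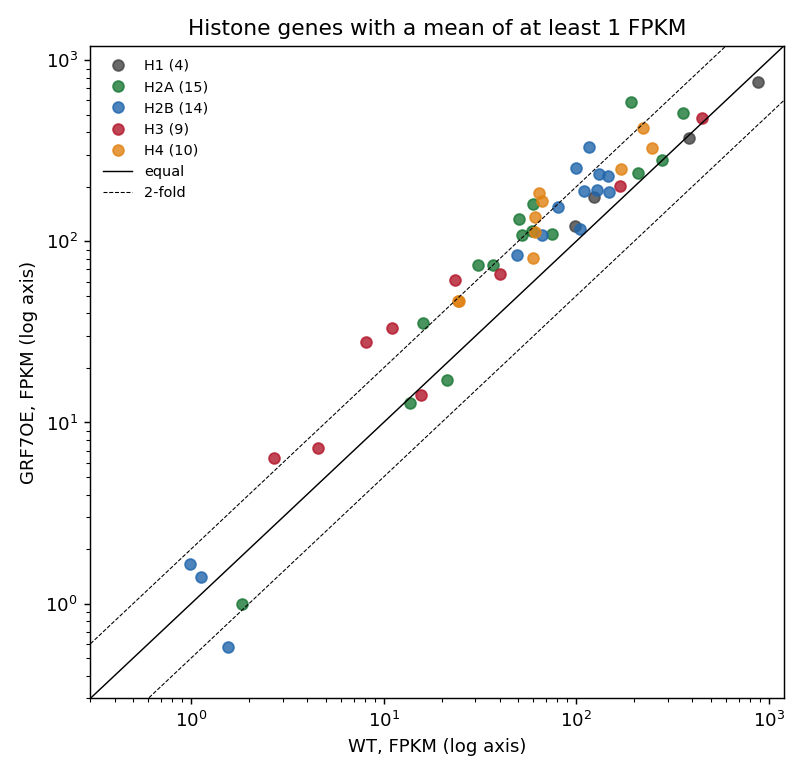
Level of the 52 histone genes averaging at least 1 FPKM, WT on the x axis and GRF7OE on the y axis, both in FPKM on log axes. Each point is 1 gene, coloured by class with the number of genes in the legend, the solid line marks equal levels and the dashed lines 2-fold; 45 points lie above the solid line and 14 are called at least 2-fold higher with a pseudocount of 1.

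The authors' deposited table calls 11 histone genes significant and higher in GRF7OE, and none lower. That is 21.2% of the 52 histone genes with a status of OK, against 1.28% of all genes with that status called higher and 0.352% called lower. Per the file headers a call needs an FDR no higher than 0.05 and at least a doubling or halving, and the p-values behind it compare these 2 libraries, not the conditions. The 11 are all among the 14 genes past 2-fold. They comprise 5 genes for H2A, 2 for H2B, 1 for H3, 3 for H4 and none for H1.

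Histone H4 pairs with H3 at the centre of the spool and is among the most conserved of proteins. All 10 expressed H4 genes were higher in GRF7OE, each with a counting interval above 1, and the class summed to 1779 FPKM in GRF7OE and 1001 in WT, or 1.78-fold [1.73 to 1.83]. Its median log2 ratio was 0.92. OS03G0119900 stood at 186 FPKM in GRF7OE and 64.2 in WT, or 2.90-fold higher [2.57 to 3.27]. OS02G0684500 stood at 167 FPKM against 66.5, 2.51-fold higher [2.24 to 2.82], and OS04G0583600 at 136 against 61, 2.24-fold higher [1.99 to 2.52]. These 3 were past 2-fold, and the authors' deposited table calls them significant, with FDR values of 0.000349, 0.00363 and 0.0221.

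The remaining H4 genes spread below them. The H4 gene with the highest mean, OS01G0835900, stood at 423 FPKM in GRF7OE and 221 in WT, or 1.91-fold higher [1.80 to 2.02]. OS05G0462700 was at 47.1 FPKM against 24.3, OS09G0433600 at 47.1 against 24.5, and OS05G0466600 at 113 against 60.8. Those 4 lay within a narrow band, at 1.86-fold to 1.93-fold. Lower folds were measured for OS09G0553100, at 252 FPKM against 170.1 (1.48-fold [1.38 to 1.59]), and OS07G0549900, at 81.3 against 59.9 (1.36-fold [1.2 to 1.54]). OS10G0539500, the most abundant H4 gene in WT, had the lowest fold of the 10, at 327 FPKM against 248, 1.32-fold [1.24 to 1.40]. The 10 genes share 1 best protein match and a length of 103 residues, and the intervals of their lowest and highest folds, 1.32 and 2.90, did not overlap. Where copies are this alike in sequence, the division of reads between them depends on the authors' mapping, so single-gene values of H4, and of other near-identical histone copies, are less certain than the class sums. OS05G0462900, an H4 gene whose best match has 86% similarity, was listed at 0 in both libraries.

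Histone H2A pairs with H2B on the outer faces of the spool. Swiss-Prot numbers a group of rice H2A genes H2A.1 to H2A.7, and that name alone keeps them together here. Among those with 100% similarity, H2A.4, H2A.5 and H2A.6 have 163, 159 and 156 residues, and the others 134 or 135. The group may therefore hold more than 1 type of H2A, which was not tested. All 8 expressed members of that group had a log2 ratio above 0, with a median of 1.02, and they summed to 1934 FPKM in GRF7OE and 1091 in WT, or 1.77-fold [1.73 to 1.81]. At least 2-fold higher were 4 of them. The H2A.5 gene OS03G0279200 stood at 585 FPKM in GRF7OE and 193 in WT, or 3.04-fold higher [2.88 to 3.2], on about 5610 reads against 1938. It was the most abundant gene of that group in GRF7OE, and stood below H2A.2 and H2A.4 in WT. H2A.3 (OS08G0427700) stood at 162 FPKM against 59.5, 2.72-fold higher [2.42 to 3.05], and H2A.6 (OS05G0113900) at 133 against 50.5, 2.63-fold higher [2.37 to 2.92].

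A further gene matched to H2A.5, OS01G0502700, whose predicted protein of 261 residues is longer than the others, stood at 35.6 FPKM in GRF7OE and 16.0 in WT, or 2.23-fold higher [1.88 to 2.65]. With an FDR of 0.0784 it has no significant call in the authors' deposited table. H2A.7 (OS12G0438000) stood at 114 FPKM against 59.3, 1.92-fold higher [1.74 to 2.13]. H2A.1 (OS07G0545300) and H2A.2 (OS07G0545400), which have consecutive identifiers, had like folds, at 110.2 FPKM against 74.8 and at 515 against 359. Those are 1.47-fold [1.34 to 1.62] and 1.43-fold [1.37 to 1.5]. H2A.4 (OS05G0461400) stood apart from the group, at 280.3 FPKM in GRF7OE and 279.5 in WT, or 1.0-fold [0.964 to 1.04], and its log2 ratio of 0.00 turned below 0 at equal FPKM totals. OS04G0212700 and OS08G0289266, matched to H2A.6, and OS06G0250300, matched to H2A.5, were listed at 0 in both libraries.

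The genes that Swiss-Prot calls H2A variants belong to the H2A.Z type, which marks the start of genes and is known in Arabidopsis for a part in the response to temperature. H2A variant 1 (OS03G0162200) stood at 73.9 FPKM in GRF7OE and 30.9 in WT, or 2.39-fold higher [2.10 to 2.73]. The FDR of variant 1 in the authors' deposited table is 0.0126, a significant call. H2A variant 2 (OS10G0418000) stood at 74.0 FPKM against 37.2, 1.99-fold higher [1.78 to 2.22]. H2A variant 3 (OS03G0743400), the most abundant of them, stood at 238 FPKM against 211, 1.13-fold higher [1.09 to 1.18]. The first pair thus had larger ratios than the third, whose interval did not overlap theirs. The 3 genes summed to 386 FPKM in GRF7OE and 279 in WT. All rows of this name took 26.2% of the reads of H2A genes in GRF7OE [25.7 to 26.7, exact binomial] and 31.6% in WT [30.9 to 32.2]. In FPKM the shares were 16.4% in GRF7OE and 20.6% in WT. The smaller share in GRF7OE stood beside the higher sum of H2A.1 to H2A.7. A further row with this name, OS02G0435000, has 60% similarity to the histone and a predicted protein of 372 residues, and the same row names SEC62, a protein translocation factor. It was at 17.2 FPKM against 21.4, 1.24-fold lower [1.12 to 1.38], and the shares above include its 678 reads in GRF7OE and 809 in WT. The median log2 ratio of the group was 0.57 with this row and 0.97 without it.

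The H2AX genes differed from each other. H2AXb (OS12G0530000) stood at 109 FPKM in GRF7OE and 52.1 in WT, or 2.09-fold higher [1.87 to 2.33]. Its FDR in the authors' deposited table is 0.0428, also a significant call. H2AXa (OS03G0721900) was at 12.8 FPKM against 13.7, 0.935-fold [0.631 to 1.38], on 52 reads against 58, and no difference was detectable at that depth. The intervals of the 2 genes did not overlap. Their sum was 122 FPKM against 65.7, or 1.85-fold [1.66 to 2.06], and rested on H2AXb, since its log2 ratio of 0.89 came to -0.10 without that gene. OS03G0144700, matched at 68% similarity to an H2A of the green alga Volvox, was at 0.992 FPKM against 1.84, 1.86-fold lower [1.09 to 3.23], on 23 reads against 43.

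**Figure D2:**
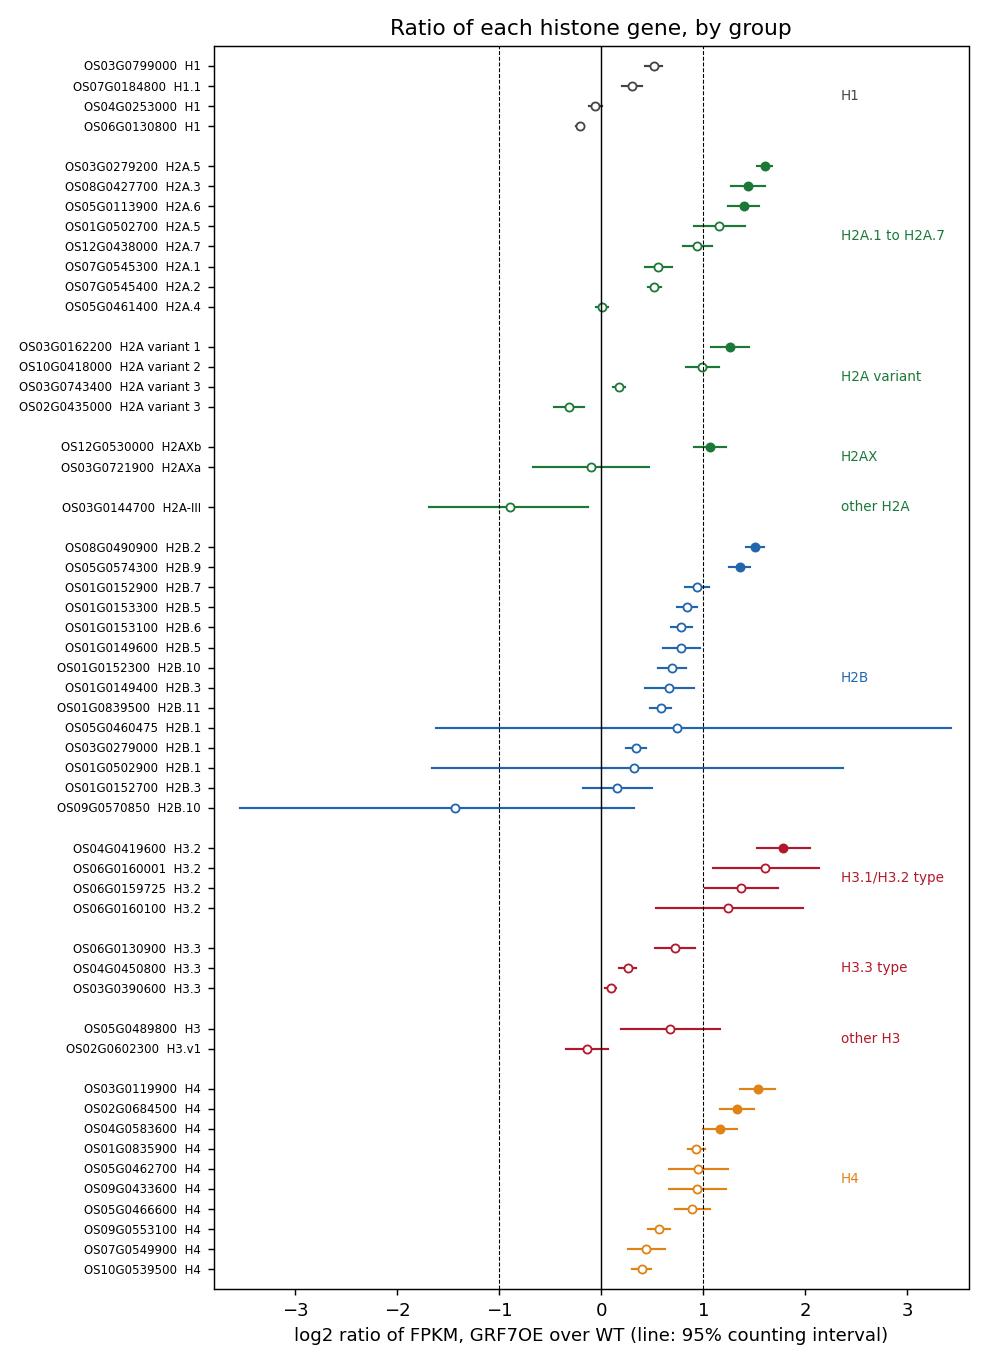
Log2 of the FPKM ratio, GRF7OE over WT, of each of the 52 expressed histone genes on the x axis, with genes as rows by group and no pseudocount. Points are genes, filled where the authors' table calls them significant, horizontal lines are 95% counting intervals and dashed lines mark 2-fold; the 10 H4 genes and the 4 H3.1/H3.2-type genes lie wholly above 0, and the 4 H1 genes fall on both sides of it.

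Histone H2B genes were higher in 13 of 14 expressed members, with a median log2 ratio of 0.67, and 10 of them had a counting interval above 1. The class summed to 2090 FPKM in GRF7OE and 1185 in WT, or 1.76-fold [1.71 to 1.82]. Past 2-fold were H2B.2 (OS08G0490900), at 333 FPKM against 117 and 2.85-fold higher [2.68 to 3.03], and H2B.9 (OS05G0574300), at 255 against 99.7 and 2.56-fold higher [2.39 to 2.75]. The authors' deposited table calls both significant, with FDR values of 6.93e-05 and 0.000653. H2B.11 (OS01G0839500) stood at 192 FPKM against 129, 1.5-fold higher [1.39 to 1.61], and H2B.1 (OS03G0279000) at 188 against 148, 1.27-fold higher [1.18 to 1.36].

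A run of 7 H2B genes has identifiers close together, from OS01G0149400 to OS01G0153300, and their folds lay between 1.11 and 1.92. H2B.7 (OS01G0152900) stood at 154 FPKM in GRF7OE and 80.6 in WT, or 1.92-fold higher [1.77 to 2.07]. H2B.6 (OS01G0153100), which shares its MSU identifier with H2B.7, stood at 189 FPKM against 110.0, 1.72-fold higher [1.61 to 1.85]. The 2 genes matched to H2B.5 had like folds, OS01G0153300 at 235 FPKM against 131 (1.79-fold [1.67 to 1.91]) and OS01G0149600 at 84.4 against 49.0 (1.72-fold [1.52 to 1.95]). These 4 genes lay between 1.72-fold and 1.92-fold, and the rest of the run lower. H2B.10 (OS01G0152300) stood at 108 FPKM against 66.7, 1.62-fold higher [1.47 to 1.78]. H2B.3 (OS01G0149400) stood at 231 FPKM against 146, 1.58-fold higher [1.34 to 1.87]. OS01G0152700, a short row with 41 residues, was at 117 FPKM against 105, and its interval of 0.881 to 1.41 included 1. None of the 7 was past 2-fold, and the authors' deposited table calls none of them significant.

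The other H2B rows were nearly silent. OS05G0460475 had 5 reads in GRF7OE and 3 in WT, and OS01G0502900 had 6 and 5. OS09G0570850, with 68% similarity to its match, had 4 reads against 11. The intervals of all 3 included 1. OS08G0490800 was listed at 0 in both libraries.

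Histone H3 showed different ratios in its canonical and replacement forms, while the whole class summed to 900.3 FPKM in GRF7OE and 727 in WT, or 1.24-fold [1.2 to 1.28]. The rows whose best match is the Arabidopsis protein listed as H3.2 and also as H3.1, the form laid down behind the replication fork, summed to 129 FPKM in GRF7OE and 45.3 in WT, or 2.84-fold higher [2.43 to 3.32]. The rows matched to Arabidopsis H3.3 summed to 750.0 FPKM against 661, 1.13-fold higher [1.1 to 1.17]. The intervals of the sums did not overlap. The H3.1/H3.2 type took 9.39% [8.84 to 9.97] of the reads of all H3 rows in GRF7OE, 978 of 10414, and 3.61% [3.23 to 4.02] in WT, 321 of 8892. Brackets after these shares are exact binomial intervals and cover counting error only. In FPKM the shares were 14.3% in GRF7OE and 6.24% in WT. The H3.1/H3.2-type sum was small beside that of H4, at 1779 FPKM in GRF7OE and 1001 in WT. Whether reads of near-identical copies went uncounted was not tested.

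All 4 expressed genes of the H3.1/H3.2 type were higher in GRF7OE, with a median log2 ratio of 1.43, and 3 were past 2-fold. OS04G0419600 stood at 27.7 FPKM in GRF7OE and 8.05 in WT, or 3.44-fold higher [2.89 to 4.13], the highest fold among the 52 histone genes, and its FDR in the authors' deposited table is 0.000284. The other 3 have neighbouring identifiers. OS06G0160001 stood at 33.4 FPKM against 11, 3.03-fold higher [2.13 to 4.39], and OS06G0159725 at 60.8 against 23.6, 2.58-fold higher [2.02 to 3.33]. OS06G0160100 stood at 6.38 FPKM against 2.71, 2.36-fold higher [1.45 to 3.94], and just under 2-fold with the pseudocount, at a log2 ratio of 0.99. These 3 rested on 56 to 229 reads in GRF7OE, and the authors' deposited table calls none of them significant. OS12G0415800, of the same type, was listed at 0 in both libraries.

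Of the H3.3 type, OS03G0390600 was the most abundant H3 gene, at 482 FPKM in GRF7OE and 453 in WT, or 1.07-fold [1.03 to 1.11]. OS04G0450800 stood at 202 FPKM against 168, 1.2-fold higher [1.13 to 1.27]. OS06G0130900 had a larger ratio than both, at 66.1 FPKM against 40.1, 1.65-fold higher [1.44 to 1.89]. OS02G0457100 and OS02G0457300 were listed at 0 in both libraries. Of the H3 rows outside these types, OS05G0489800, with 71% similarity to an algal H3, stood at 7.27 FPKM against 4.56, 1.59-fold higher [1.15 to 2.23]. OS02G0602300, matched to H3.v1 of the slime mould Dictyostelium at 74% similarity and described as a transmembrane protein in the same row, was at 14.2 against 15.6, and its interval of 0.786 to 1.05 included 1.

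The linker histone H1 class was close to its WT level. Its 4 genes summed to 1429 FPKM in GRF7OE and 1488 in WT, or 0.961-fold [0.942 to 0.979], and 2 had a log2 ratio above 0 and 2 below. OS06G0130800, the most abundant histone gene in either library, was at 761 FPKM against 879.8, 1.16-fold lower [1.13 to 1.18], on 11593 reads against 14442. OS04G0253000 was at 370.2 FPKM against 386, a ratio within counting error at 1.04-fold lower [0.998 to 1.09]. The more abundant pair was thus slightly lower or level, and the less abundant pair higher. OS03G0799000 stood at 176 FPKM against 123, 1.43-fold higher [1.35 to 1.51]. OS07G0184800, matched to Arabidopsis H1.1 at 48% similarity, stood at 122 FPKM against 98.7, 1.23-fold higher [1.15 to 1.32]. Without OS06G0130800 the log2 ratio of the class sum turned from -0.06 to 0.14. The authors' deposited table calls none of the 4 significant.

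**Figure D3:**
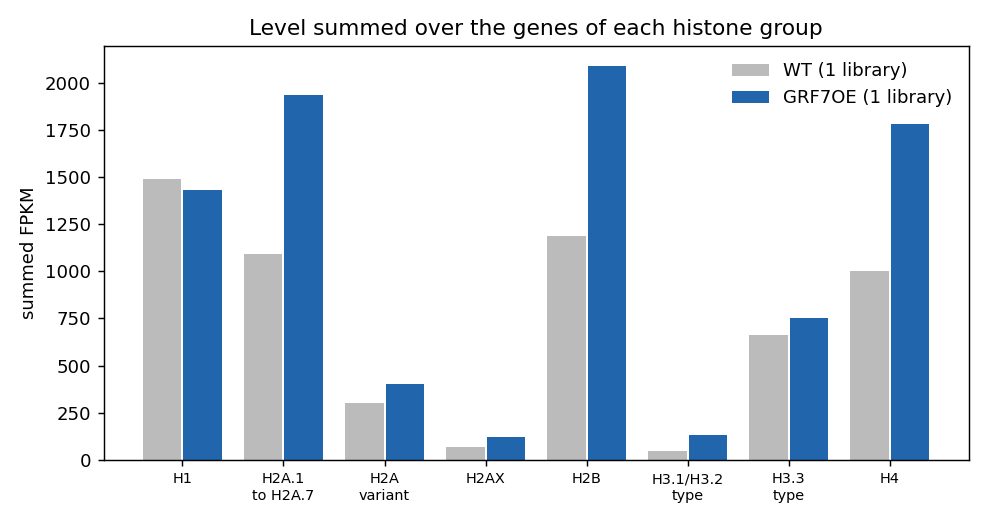
FPKM summed over all genes of each histone group (y axis, linear from 0), with WT in grey and GRF7OE in blue, 1 library each and no error bar. The bars of H2B, of H4 and of the H2A group that Swiss-Prot names by number alone are taller in GRF7OE by 1.76-fold to 1.78-fold. The H3.1/H3.2-type bars are small but 2.84-fold apart, and the H1 and H3.3 bars are nearly level.

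In FPKM the sums of H2A.1 to H2A.7, H2B and H4 had ratios of 1.77, 1.76 and 1.78, with overlapping intervals. At equal FPKM totals, a scaling common to all genes, the sums stayed close, at log2 ratios of 0.73, 0.73 and 0.74. The sums were less close in the count columns and without the gene of the highest mean in each group. Log2 ratios of these sums were 0.83, 0.82 and 0.83 in FPKM, 0.67, 0.85 and 0.77 in the count columns, and 0.95, 0.72 and 0.80 without the gene of the highest mean in each group. Within each of these groups single genes ranged more widely, up to 3.04-fold in H2A, 2.85-fold in H2B and 2.90-fold in H4. The genes past 2-fold had WT levels between 8.05 and 193 FPKM. Of the 8 histone genes above 200 FPKM in WT none was past 2-fold, and the highest log2 ratio among them was 0.93, for the H4 gene OS01G0835900. The 200 FPKM cut lies just above the WT level of H2A.5 (OS03G0279200), 193 FPKM, and that gene was 3.04-fold higher. Of all genes 3.24% were at least 2-fold higher, so no link between level and ratio is drawn from that count. Across the 52 genes the WT level and the log2 ratio had a Spearman correlation of -0.15 and a Pearson correlation of 0.03 on the log scale. The WT level is also the denominator of the ratio, and the genes share both libraries. Of the 39 expressed genes with 100% similarity to their Swiss-Prot match 38 were above 0, H2AXa being the exception. Of the 13 with lower similarity 7 were above 0 and 6 below, and of all expressed genes 48.3% were above 0. The 13 include every H1 gene and the rows also described as another protein. Similarity is thus mixed with class and annotation, and its part in the ratios was not tested.

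Genes for proteins that handle or modify histones had log2 ratios mostly below 0, while 48.3% of all expressed genes were above 0. Of 14 expressed histone chaperones and assembly factors, which carry histones to and from DNA, 3 had a log2 ratio above 0 and 11 below, with a median of -0.10. None was past 2-fold, against 4.49% of all genes in either direction. The members with the largest ratios were subunits of FACT, the complex that helps polymerases pass nucleosomes. SSRP1-A (OS01G0184900) stood at 38.4 FPKM in GRF7OE and 50.4 in WT, or 1.31-fold lower [1.24 to 1.38], and an SPT16 gene (OS12G0446500) at 7.41 against 9.92, 1.34-fold lower [1.2 to 1.49]. A further SPT16 gene, OS08G0404350, had 24 reads against 34, and its interval included 1. Of 75 expressed histone-modifying enzymes 17 had a ratio above 0 and 58 below, the median being -0.14 and none past 2-fold. The acetyltransferase gene HAC-like 1 (OS02G0137450) was at 6.92 FPKM against 13.6, 1.97-fold lower [1.48 to 2.62]. An acetyltransferase gene matched to human KAT6A (OS04G0106500) was at 9.25 against 5.17, 1.79-fold higher [1.42 to 2.27]. Histone deacetylase 8 (OS05G0440632) had 8 reads against 19, and its interval included 1.

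DNA replication genes, whose products act in the S phase in which canonical histones are made, showed small ratios. Of 37 expressed members 22 were above 0 (59.5%, against 48.3% of all expressed genes) and 15 below. None was past 2-fold, against 4.49% of all genes. The median was 0.09, which came to 0.01 at equal FPKM totals and 0.18 in the count columns. PCNA (OS02G0805200), the sliding clamp of the replication fork, stood at 51.6 FPKM in GRF7OE and 33.4 in WT, or 1.55-fold higher [1.40 to 1.71]. Replication protein A 70 kDa subunit B (OS03G0214100), which binds single-stranded DNA, stood at 13.2 FPKM against 9.01, 1.47-fold higher [1.30 to 1.66]. DNA polymerase delta subunit 4 (OS08G0163300) had 26 reads against 18, and its interval included 1. The list was drawn by keyword and holds 2 rows for a helicase associated with polymerase alpha.

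Mitotic cyclins and B-type kinases, which are expressed in dividing cells, were above 0 in 14 of 18 expressed members (77.8%, against 48.3% of all expressed genes) and below in 4. None was past 2-fold, against 4.49% of all genes, and the median was 0.25. That median came to 0.12 for genes averaging at least 5 FPKM and to 0.42 in the count columns. Cyclin-B2-2 (OS06G0726800) stood at 8.32 FPKM in GRF7OE and 4.17 in WT, or 2.0-fold higher [1.66 to 2.41] as a plain ratio and at a log2 ratio of 0.85 with the pseudocount. Cyclin-B1-1 (OS01G0805600) was at 13.4 against 7.47, 1.79-fold higher [1.49 to 2.15], and Cyclin-B1-5 (OS05G0493500) at 10.7 against 6.09, 1.75-fold higher [1.44 to 2.13]. The authors' deposited table calls no expressed gene on these 4 lists significant. Of all genes with a status of OK it calls 1.28% higher and 0.352% lower, so lists this short would hold few calls at those shares.

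**Figure D4:**
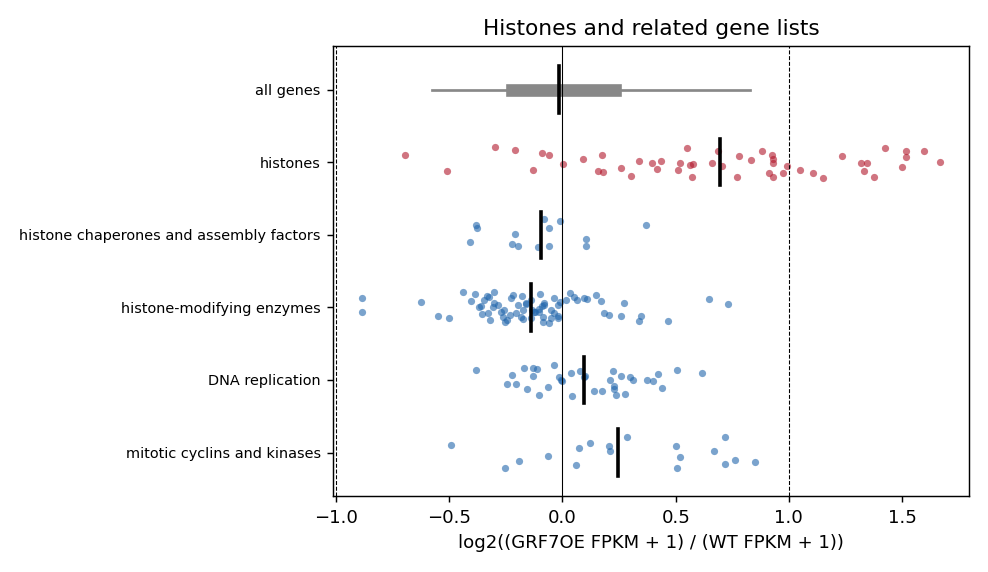
Log2 ratio with a pseudocount of 1 (x axis) for all genes, the histones and the related lists, each limited to expressed genes. Points are genes (histones in red, other lists in blue) spread vertically at random for visibility, black bars are medians, and for all genes the thick bar spans the middle 50% and the thin line 5% to 95%; the histone median of 0.70 lies to the right of the other medians, which run from -0.14 to 0.25.

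Markers of dividing, meristem, leaf and root cells had the following levels, and their part in the histone ratios was not tested. For comparison, 48.3% of all expressed genes were above 0. The 17 dividing cell markers (B-type cyclins and kinases) are all on the mitotic list above, so they are not a separate set of genes. Of these 11 were expressed, 9 of them above 0, and the list summed to 299 FPKM in GRF7OE and 261 in WT. Shoot meristem markers were homeobox genes of the knotted type, drawn by name and not checked for expression outside the meristem. Of 10 expressed members 2 were above 0 and 8 below, with sums of 296 FPKM against 328. The sums rested mostly on knotted-1-like 11, at 146 FPKM against 153, and knotted-1-like 2, at 60.9 against 62.4. Past 2-fold lower were 2 of the 10, against 1.25% of all genes, and the authors' deposited table calls 1 of them significant. All 20 expressed leaf markers of 24 were above 0, with a median log2 ratio of 0.35. Of these, 1 was past 2-fold higher, against 3.24% of all genes, the Rubisco small subunit gene OS02G0152400 at 92.1 FPKM against 41.3 (2.23-fold [2.02 to 2.46]), with a significant call in the authors' deposited table. Root markers summed to 67.0 FPKM against 62.8, mostly from aquaporin NIP2-2 at 59.5 against 55.2.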

How the data were processed

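The tools named per the submitters' processing notes are Bowtie and Cuffdiff. The sources used here give neither their versions nor a genome build. The authors deposited 1 table with FPKM, a normalised count per gene (a signal), p-values, FDR and log2 ratios. In the count columns nearly all values below 10000 (99.3% in GRF7OE, 99.2% in WT, within 0.05) are whole multiples of 1 read, worth 0.963 and 0.954, and reads for intervals were recovered by dividing by that step. The deposited log2 ratio matched the FPKM ratio to within 0.001 in the 28656 genes where neither library is at 0, and was not used further.

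Ratios were computed from FPKM with a pseudocount of 1, where both libraries averaged at least 1 FPKM. Intervals of summed FPKM are normal approximations on the log scale, with Poisson reads weighted by FPKM per read. No fold is given where either library had no reads or both had at most 3, and no test of the conditions was run. Classes follow the Swiss-Prot name. Members and lists were chosen with earlier results of these data known. Genes named are, per class, the 2 with the highest mean and the 4 with the largest absolute log2 ratio, all members past 2-fold, all variants, and the 3 with the largest absolute log2 ratio per related list; other members were added after their values were seen, so that every member is shown. Counting steps were tested on simulated reads. Alternatives were other pseudocounts, filters, fold sizes and scalings, the count columns in place of FPKM, leaving out the member with the highest mean, and 2 alternatives chosen after seeing the data (leaving out 2 members that their rows also describe as another protein, and summing members with the same Swiss-Prot match). Software was Matplotlib 3.10.9, NumPy 2.4.6, pandas 2.3.3 and SciPy 1.17.1 under Python 3.11.15.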

Additional observations from a re-analysis of the deposited data

How the results depend on the processing

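Of the 14 histone genes at least 2-fold higher, the count was 13 to 15 under the other pseudocounts, scalings, filters and the count columns, 28 at 1.5-fold and 2 at 3-fold. At least 2-fold lower was 1 gene with a pseudocount of 0.1 and with the count columns, and 1 at 1.5-fold. Summing entries with the same Swiss-Prot match, chosen after seeing the data, left 33 entries, 27 above 0 and 8 past 2-fold higher, and an H3 median of 0.38 in place of 0.71. That summing, and leaving out the 2 rows annotated as another protein, gave an H2A variant median of 0.97.

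At equal FPKM totals, medians were 0.029 for H1, 0.17 for the H3.3 type and 0.26 for leaf markers. Log2 ratios of sums were then 0.47 for all histones, -0.15 for H1, 0.66 for H2A, 0.73 for H2B, 0.22 for H3, 0.74 for H4, 0.73 for H2A.1 to H2A.7, 0.33 for H2A variants and 0.090 for the H3.3 type, lower by construction. With the median ratio of all genes scaled to 1, the sum of all histones was at 0.58. With the count columns, which weight long transcripts more, medians were 0.037 for H1 and 0.31 for leaf markers, and sums were at 0.41 for all histones, -0.14 for H1, 0.57 for H2A, 0.24 for H3, 0.77 for H4, 0.67 for H2A.1 to H2A.7 and 0.30 for H2A variants.

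Without the gene with the highest mean, sums were at 0.67 for all histones, 0.14 for H1, 0.82 for H2A, 0.72 for H2B, 0.61 for H3, 0.95 for H2A.1 to H2A.7, 0.88 for H2A variants, -0.10 for H2AX and 0.36 for the H3.3 type. H1 and H2AX changed sign there. The mitotic list's median of 0.25 was 0.37 with a pseudocount of 0.1, 0.42 with the count columns and 0.12 at a mean of 5 FPKM or more. DNA replication, at 0.09, was at 0.18 with the count columns and 0.011 at equal totals. At equal totals chaperones went from -0.10 to -0.16, modifying enzymes from -0.14 to -0.22 and dividing cell markers from 0.21 to 0.12. At a mean of 5 FPKM or more chaperones came to -0.06 and meristem markers from -0.33 to -0.07. The root median of 0.02, from 2 genes, changed sign at equal totals (-0.07) and with the count columns (-0.01). Summing genes with identical RefSeq proteins was not run. No paired analysis was possible because each group had 1 library. The 3 expressed genes with at most 11 reads in both libraries allow no statement on direction.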

Other observations

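In the authors' deposited table, histone genes of like fold and depth have unlike p-values, which compare the 2 libraries. The H3.3-type gene OS06G0130900, 1.65-fold higher on about 554 reads against 356, has a p-value of 0.551. The H2B.5 gene OS01G0149600, 1.72-fold higher on about 654 reads against 399, has a p-value of 0.0152. The cause was not tested.

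Histone genes with adjacent identifiers did not always have like ratios. H2A.5 (OS03G0279200) was 3.04-fold higher in GRF7OE [2.88 to 3.2], and H2B.1 (OS03G0279000) 1.27-fold [1.18 to 1.36]. The H3.3-type gene OS06G0130900 was 1.65-fold higher [1.44 to 1.89], and the H1 gene OS06G0130800 was 1.16-fold lower [1.13 to 1.18].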
